A study of Ambystoma californiense with 99 samples.

Results

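The 6 genes GATA2, slit2, INHBB, KANK1, PLEKHD1 and RAB44 were followed in tiger salamanders across taxa, treatments and tissues. They were chosen by their read counts in the brains of heated F1 hybrids, which lay below those of heated animals of both parent taxa, so those heated-brain values are given here as a description and carry no test. In heated brain 7.81% of gene models differed between F1 and CTS and 5.12% between F1 and BTS, and nothing is read from those shares, since the rule used these contrasts. They are 6 of 23251 gene models in the count tables. A gene model counted as outside the parents when F1 differed from CTS and from BTS in the same direction, each at an adjusted p under 0.05. In heated brain 10 of 15496 gene models tested, 0.0645%, met that rule, 8 of them lower in F1 and 2 higher. The rule also took itgb7 and LOC101942877 on the low side and cdca9.S and ZNF23 on the high side, which are not described further. Just inside the threshold were KANK1, with a larger adjusted p of 0.0399, and LOC101942877 with 0.04, and just outside were tbxas1.L with 0.0532 and LOC107106949 with 0.0547.

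The study compared 3 kinds of salamander: CTS, the California tiger salamander Ambystoma californiense, BTS, the barred tiger salamander, and F1 hybrids between them. Heated animals underwent acute thermal stress that ended when an animal placed on its back could not right itself for 30 seconds, and control animals did not receive that treatment. Poly(A) RNA of whole brain and of leg muscle was sequenced as stranded single reads of 100 bp. Control and heated brain libraries numbered 5 and 5 in CTS, 5 and 6 in BTS, and 13 and 10 in F1, and muscle libraries 5 and 5, 5 and 6, and 13 and 12. Both sexes were used, the labels give no ages, and each animal gave at most 1 library per tissue. Backcross animals, labelled BTSbc and CTSbc, gave 4 further libraries per tissue and enter no test. The titles and genotype tags of animals 12, 26, 30, 76 and 84 name different groups, and the tag was used. Animal 76 is titled BTS and tagged CTS, so 1 of the 5 heated CTS libraries of each tissue is uncertain. Leaving it out was among the alternatives. Animal 64 is labelled control in brain and heated in muscle.

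Total counts ran from 3213005 to 13506066 in brain, apart from the heated F1 library of animal 16 with 5418, and from 1232774 to 20068304 in muscle, apart from the heated F1 library of animal 11 with 66186. Those 2 shallow libraries stayed in the fits and were left out of the levels given below. The brain libraries carried neuron markers (7 of 11 listed genes in the tables, summed level 4844 to 14240 CPM, or counts scaled to library size, in CTS, BTS and F1) and the muscle libraries skeletal muscle markers (9 of 13 listed genes, 92000 to 336000). The heated CTS brain library of animal 7 held 2180 CPM of muscle markers, against at most 284.8 in the other CTS, BTS and F1 brain libraries. Of the 5 heated CTS brain libraries it was also the lowest for neuron (4844) and oligodendrocyte (1884) markers. It was the highest of them for endothelium (853.6), immune and mast cell (306.6), choroid plexus and meninges (172.2), epidermis (463) and connective tissue (654) markers. Levels below are in CPM after TMM scaling, a correction for library composition, and cannot be compared between genes because gene lengths are not in the tables.

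The 6 genes belong to several systems. GATA2 is a zinc-finger transcription factor needed in mouse for blood stem cells and for the GABA-releasing neurons of the midbrain. SLIT2 is a secreted protein that binds Robo receptors on growing axons and turns them away from the midline, and INHBB encodes the beta B subunit that pairs to form activin B or, with an alpha subunit, inhibin B. KANK1 encodes an ankyrin-repeat adaptor that binds talin at the rim of cell adhesions and links it there to cortical microtubules. RAB44 encodes a large, atypical Rab GTPase with EF-hand and coiled-coil regions, studied in mouse mast cells and osteoclasts. PLEKHD1 encodes a protein with a pleckstrin homology domain and a coiled coil, and little is known of its work.

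GATA2 (AMEXTC_0340000052417) was at similar levels in all control brains and low in heated F1 brains. In control brain the CTS libraries held 20.2, 20.6, 20.8, 25.2 and 29.5 CPM, and the BTS libraries held 20.2, 20.3, 22.8, 25.7 and 27.2. Control F1 libraries ran from 13.9 to 37.3 with a median of 24.5. The 3 means were nearly equal, at 23.3 ± 4.01 (SD, n = 5) in CTS, 23.2 ± 3.15 (SD, n = 5) in BTS and 23.2 ± 6.54 (SD, n = 13) in F1, with F1 spread the widest. In heated brain the CTS libraries held 23.0, 23.8, 26.6, 33.7 and 34.9 CPM, the 6 BTS libraries ran from 17.1 to 28.5 with a median of 25.6, and the 9 F1 libraries from 6.78 to 20.5 with a median of 14.8. Every one of the 9 heated F1 libraries lay below the lowest CTS library, and 7 of 9 lay below the lowest BTS library. The fitted log2 difference was -1.07 (SE 0.18) from CTS and -0.65 (SE 0.17) from BTS. This count follows transcripts in a whole tissue, so fewer GATA2-expressing cells and less GATA2 RNA per cell cannot be told apart, here or for the other 5 genes.

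The axon guidance ligand slit2 (AMEXTC_0340000079432) was lower in heated F1 brains than in heated parents by a similar amount on both sides. Heated CTS libraries held 23.9, 27.2, 27.2, 33.4 and 36.4 CPM, heated BTS libraries 24.3 to 32.9 with a median of 28.1, and heated F1 libraries 12.0 to 26.4 with a median of 17.9. Of the 9 heated F1 libraries 7 lay below all 11 parent libraries, and animals 67 and 91 lay among them. The log2 difference was -0.63 (SE 0.17) from CTS and -0.62 (SE 0.16) from BTS. In control brain the levels were 21.5 ± 2.47 (SD, n = 5) in CTS, 22.7 ± 5.10 (SD, n = 5) in BTS and 24.8 ± 6.67 (SD, n = 13) in F1, and the groups overlapped. A second gene model, SLIT2 (AMEXTC_0340000033745), carries the same name in capitals and was not chosen. Its heated F1 level was 79.9 ± 12.0 (SD, n = 9), against 103 ± 15.3 in CTS (SD, n = 5) and 95.9 ± 5.38 in BTS (SD, n = 6), with log2 differences of -0.40 (SE 0.15) and -0.25 (SE 0.14). Whether the 2 models are parts of 1 gene or 2 copies is not given in the tables, so reads could be split between them.

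INHBB (AMEXTC_0340000182134), the activin B subunit gene, was low in heated F1 brains and was already at the low end in control F1 brains. Heated CTS libraries held 7.46, 12.8, 13.6, 13.9 and 14.4 CPM, with the lowest value in animal 7. Heated BTS libraries ran from 7.14 to 13.7 with a median of 10.6, and heated F1 libraries from 3.19 to 10.2 with a median of 5.64. Of 9 heated F1 libraries 6 lay below every parent library, and animal 86, at 10.2, came near the BTS median. The log2 difference was -1.13 (SE 0.21) from CTS and -0.71 (SE 0.20) from BTS. In control brain CTS stood highest, at 12.1 ± 1.95 (SD, n = 5), while BTS at 8.40 ± 0.774 (SD, n = 5) and F1 at 8.29 ± 2.57 (SD, n = 13) were close to each other, and all 5 CTS libraries lay above all 5 BTS libraries. Of the 13 control F1 libraries 6 lay below the lowest parent library.

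KANK1 (AMEXTC_0340000012172) showed the smallest log2 differences of the 6 genes in heated brain. Heated CTS libraries held 41.7, 47.3, 48.5, 50.0 and 50.7 CPM, heated BTS libraries 46.2 to 61.4 with a median of 55.8, and heated F1 libraries 22.1 to 47.1 with a median of 36.5. All heated F1 libraries but that of animal 91 lay below every parent library. The log2 difference was -0.44 (SE 0.14) from CTS and -0.61 (SE 0.13) from BTS. In control brain F1 lay between the parents, at 44.6 ± 6.95 (SD, n = 13) against 39.5 ± 6.64 in CTS (SD, n = 5) and 54.1 ± 6.03 in BTS (SD, n = 5). All 13 control F1 libraries fell inside the range of the parent libraries.

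PLEKHD1 (AMEXTC_0340000000225) was the gene with the fewest reads in heated F1 brain after RAB44, with 19 to 50 reads a library. Heated CTS libraries held 6.32, 10.7, 11.1, 11.2 and 12.1 CPM, again lowest in animal 7, and heated BTS libraries 8.93 to 11.3 with a median of 10.5. Heated F1 libraries ran from 3.79 to 7.79 with a median of 5.95, so all 9 lay below the lowest BTS library, and 5 of 9 lay below the CTS library of animal 7. The log2 difference was -0.84 (SE 0.22) from CTS and -0.82 (SE 0.20) from BTS. In control brain the levels were 7.64 ± 2.55 (SD, n = 5) in CTS, 10.2 ± 1.68 (SD, n = 5) in BTS and 7.02 ± 2.27 (SD, n = 13) in F1, and 11 of 13 control F1 libraries lay below the lowest BTS library.

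RAB44 (AMEXTC_0340000047348) was a gene whose parent libraries did not overlap in control brain, as was also the case for KANK1 and INHBB. How many of all gene models share this was not counted, and 19.1% were called between BTS and CTS in control brain. Control CTS libraries held 1.29, 1.65, 1.66, 2.13 and 2.69 CPM and control BTS libraries 4.51, 5.73, 6.52, 7.00 and 7.99. Control F1 libraries ran from 2.34 to 4.49 with a median of 3.14, below all 5 BTS libraries. In heated brain CTS libraries were widely spread, at 2.63, 3.05, 6.38, 6.71 and 17.7, the highest being animal 7, whose library stood apart in several marker lists. Heated BTS libraries ran from 4.25 to 13.0 with a median of 7.33 and heated F1 libraries from 1.41 to 4.76 with a median of 3.22. Heated F1 thus kept near its control level while heated CTS libraries lay mostly above theirs, and 3 of 9 heated F1 libraries were below every parent library. The log2 difference was -1.26 (SE 0.31) from CTS, or -0.64 without the libraries of animal 7, and -1.32 (SE 0.29) from BTS. In heated CTS muscle RAB44 was at most 1.06 CPM, in animal 7. The part of other tissues in the brain value of animal 7 was not tested.

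**Figure D1:**
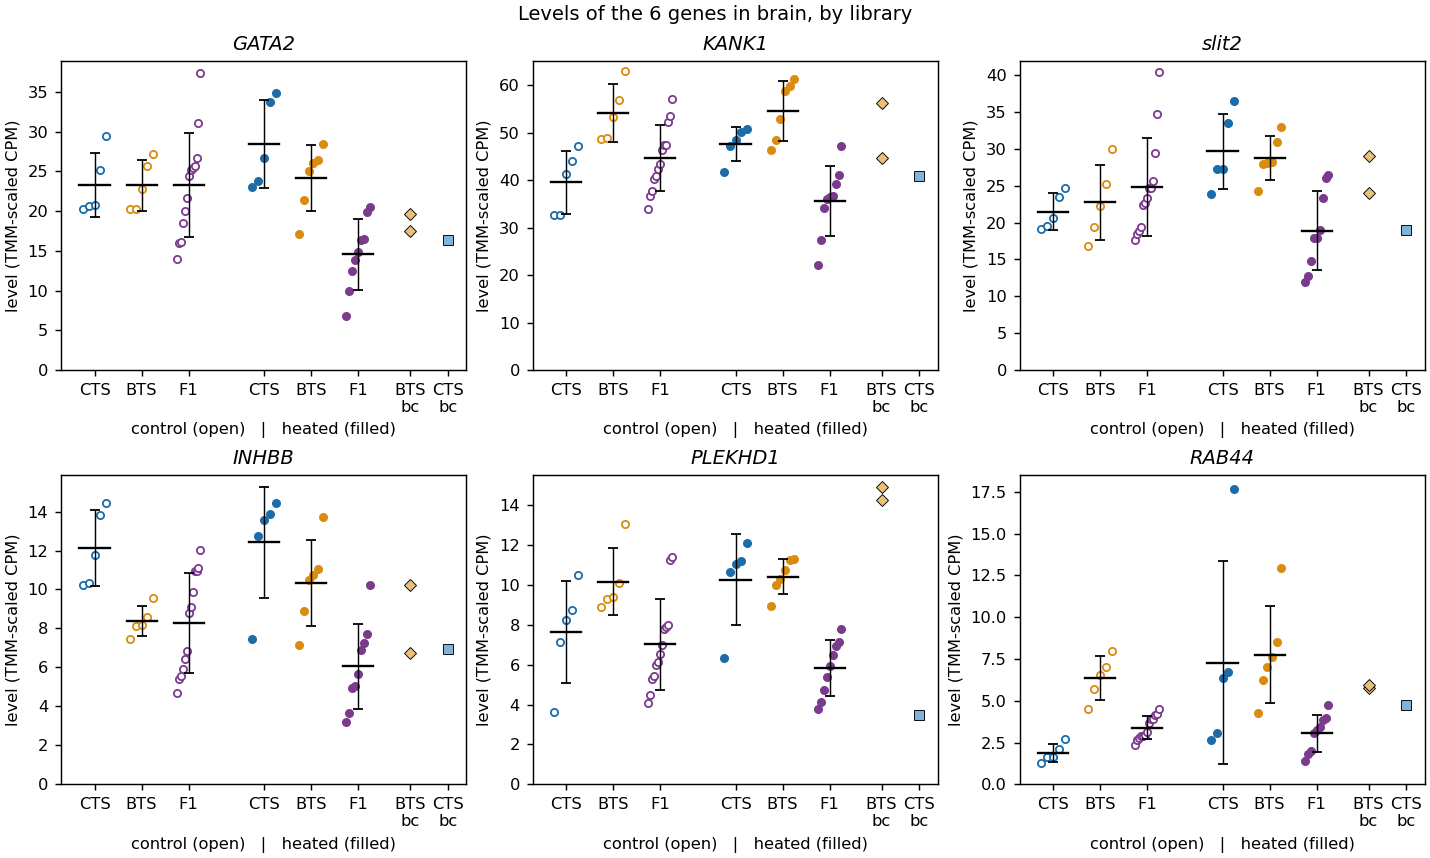
Level of each gene in each brain library, in CPM after TMM scaling on the vertical axis, for control (open) and heated (filled) CTS, BTS and F1 animals and heated backcrosses (BTS bc, CTS bc), with the mean as a bar and 1 SD as the error bar and without the shallow library. The heated F1 mean is the lowest of the 3 heated groups for each gene, as the choice of the genes requires, while control F1 points lie among the parents for KANK1, PLEKHD1 and RAB44.

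Read by animal, most heated F1 brains held several of the low values, which the choice of the genes from these libraries favours. Of the 9 heated F1 libraries 8 had 4 or more of the 6 genes below the lowest parent library of the same treatment, and the library of animal 2 had all 6. Animal 91 had 1, GATA2. Among 13 control F1 libraries the number ran from 0 to 2, made up of GATA2 in 5 libraries and INHBB in 6, and 5 libraries had none. The heated values here are those that chose the genes. Neither the counts per library nor the contrast between heated and control libraries is thus a test. Whether low values fell together within animals more than the choice implies was not tested. The 4 libraries tagged as backcrosses were not used to choose the genes. The heated CTS and BTS libraries that the heated backcrosses are set against were used, and the choice favours genes that are high in them. The backcross counts are thus no test either. By their titles animals 30 and 84 are F1 and animals 12 and 26 are BTS, so which kind of animal they were is not settled by the labels. The heated library of animal 84, tagged CTSbc and titled F1, had 5 of 6 genes below the lowest heated parent library, all but RAB44. The margins were narrow for KANK1 (40.8 against 41.7 CPM), INHBB (6.93 against 7.14) and GATA2 (16.4 against 17.1). They were wider for slit2 (19.0 against 23.9) and PLEKHD1 (3.46 against 6.32). This is 1 library, and the share of all gene models below the lowest parent library was not counted. The heated BTSbc libraries of animals 12 and 30 had 0 and 1, and the control BTSbc library of animal 26 had 3.

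**Figure D2:**
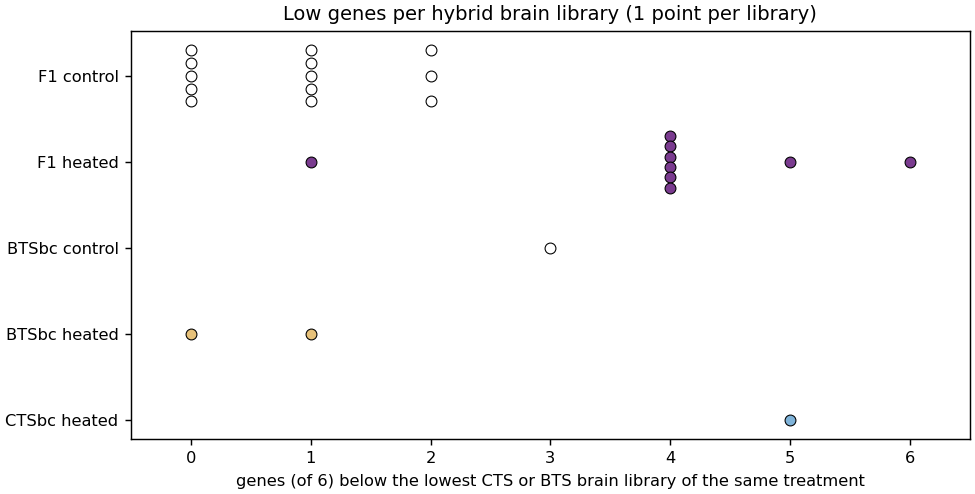
Number of the 6 genes (horizontal axis) whose level lay below the lowest CTS or BTS brain library of the same treatment, with 1 point for each F1 or backcross brain library. Of 9 heated F1 libraries 8 stand at 4 or above, the 13 control F1 libraries stand at 0 to 2, and the CTSbc library stands at 5.

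By gene, the heated backcrosses were 1 CTSbc and 2 BTSbc animals, and no test was made on them. In the CTSbc animal GATA2 stood at 16.4 CPM, slit2 at 19.0, INHBB at 6.93, KANK1 at 40.8, PLEKHD1 at 3.46 and RAB44 at 4.74, so PLEKHD1 was lower than in each heated F1 library. In the BTSbc animals PLEKHD1 stood at 14.9 and 14.3, above every heated CTS and BTS library, and slit2 at 29.0 and 24.1. GATA2 stood at 19.7 in animal 12 and 17.5 in animal 30, and INHBB at 10.2 and 6.74.

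The control brain comparisons, which did not choose the genes, ask whether F1 animals differed from their parents without heat. Between F1 and CTS none of the 6 genes passed the test with edgeR or DESeq2, where 6.35% of all gene models did with edgeR. An unadjusted p under 0.05 was found for 2 of 6, and for 2789 of all 15496 gene models. INHBB was nearest, with a log2 difference of -0.58 (SE 0.19, adjusted p = 0.0635), followed by RAB44 at 0.82 (SE 0.32, adjusted p = 0.126). INHBB passed without animal 2 (adjusted p = 0.0445), an alternative chosen after seeing the data, and RAB44 passed without animal 7 (adjusted p = 0.0456) and with only the groups compared in the fit (adjusted p = 0.0146). The intervals of the difference ran from -0.36 to 0.31 for GATA2, from -0.14 to 0.51 for slit2, from -0.10 to 0.42 for KANK1 and from -0.53 to 0.27 for PLEKHD1.

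Between F1 and BTS in control brain RAB44 was lower in F1, by a log2 difference of -0.90 (SE 0.29, adjusted p = 0.0490), and it was the 1 gene of 6 that passed where 6.3% of all gene models did. All 13 F1 libraries lay below all 5 BTS libraries. The call lay close to the threshold and was lost with DESeq2, with RLE scaling, with no filter or a stricter filter on low counts, without animals 16 and 64, and in 16 of the 21 fits that each left out 1 parent library. Those were animals 4, 14, 38, 53, 57, 60, 63, 66, 68, 69, 71, 74, 75, 77, 83 and 90, and the adjusted p reached 0.197 without BTS animal 71. PLEKHD1 at -0.58 (SE 0.20, adjusted p = 0.0808), which passed without animals 16 and 64 (-0.69, adjusted p = 0.0326), and KANK1 at -0.29 (SE 0.13, adjusted p = 0.188) did not pass. The intervals of the difference ran from -0.49 to 0.20 for GATA2, from -0.17 to 0.50 for slit2 and from -0.56 to 0.25 for INHBB. The rule that F1 lie outside both parents took 12 of 15496 gene models in control brain, 0.0774%, and none of the 6 genes, since none passed against CTS.

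The parent taxa differed from each other in control brain for RAB44 and KANK1. RAB44 was higher in BTS than in CTS, by a log2 difference of 1.73 (SE 0.37, adjusted p = 0.000736), with all 5 BTS libraries above all 5 CTS libraries. KANK1 was higher in BTS by 0.45 (SE 0.16, adjusted p = 0.0408), again with no overlap of the libraries. These are 2 of 6 genes, against 19.1% of all gene models. The KANK1 call was lost with DESeq2, with RLE scaling, with no filter, with only the control CTS and BTS libraries in the fit, and when any 1 of animals 57, 66, 68, 71, 74 and 83 was left out, with an adjusted p of up to 0.105. RLE scaling moved the median of all gene models in this comparison by -0.123 and in F1 against BTS by 0.119. The KANK1 call here and the RAB44 call between F1 and BTS were both lost with it. The RAB44 call between BTS and CTS was kept under every alternative, with an adjusted p of at most 0.00373. With 1 parent library left out at a time its adjusted p was at most 0.00595. INHBB (-0.43, SE 0.24, adjusted p = 0.238) and PLEKHD1 (0.44, SE 0.25, adjusted p = 0.232) did not pass.

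**Figure D3:**
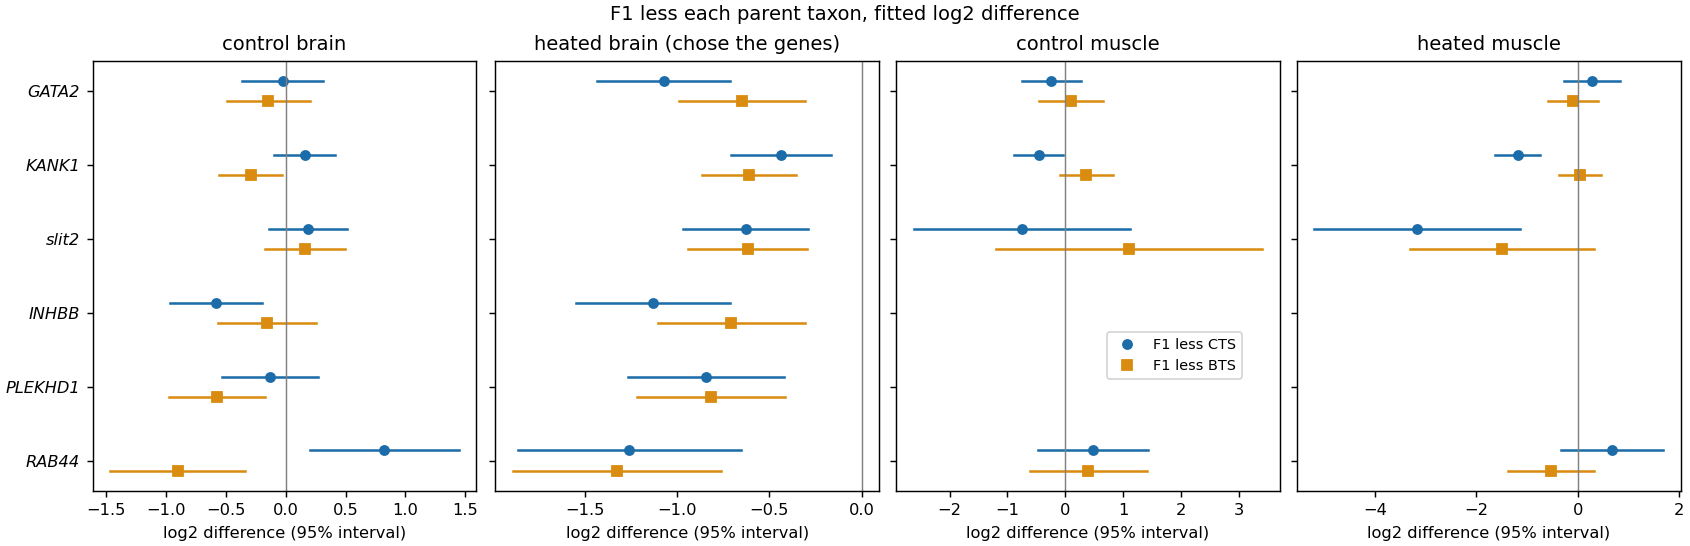
Fitted log2 difference of F1 less CTS (circles) and F1 less BTS (squares) with its 95% interval on the horizontal axis, for each gene in control and heated brain and muscle; the scales differ between panels, and INHBB and PLEKHD1 had too few reads in muscle. In heated brain, the contrasts that chose the genes, all 12 intervals lie below 0, as that choice requires, so they are no test. In control brain the intervals of GATA2 and slit2 span 0 on both sides.

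Set against their own controls, heated F1 brains had negative fitted differences for the 6 genes, and heated CTS brains positive ones. RAB44 in F1 and INHBB in CTS lay within 1 SE of 0. The RAB44 median in F1 was 3.14 CPM in control and 3.22 in heated brain. These heat differences share the heated libraries that chose the genes, so they are given without a test. In F1 the log2 difference of heated less control was -0.63 (SE 0.15) for GATA2, -0.40 (SE 0.14) for slit2, -0.42 (SE 0.17) for INHBB, -0.33 (SE 0.11) for KANK1, -0.26 (SE 0.17) for PLEKHD1 and -0.16 (SE 0.25) for RAB44. In CTS the same differences were positive for all 6 genes, from 0.13 (SE 0.24) for INHBB to 1.92 (SE 0.38) for RAB44, with 0.41 for GATA2 (SE 0.21) and for slit2 (SE 0.20). In BTS slit2 stood at 0.38 (SE 0.20) and RAB44 at 0.26 (SE 0.33), while GATA2 at -0.13 (SE 0.20), KANK1 at -0.01 (SE 0.15) and PLEKHD1 at -0.02 (SE 0.24) were near 0. Without animal 7 the RAB44 difference in CTS was 1.34.

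Markers of other cell types were also lower by median in heated F1 brains than in heated parents for 6 lists. The immune and mast cell list (5 of 9 listed genes in the tables) summed to 153 to 307 CPM in heated F1 brains with a median of 209, against 246 to 307 in heated CTS and 262 to 327 in heated BTS. The endothelium list (8 of 9 genes) summed to 191 to 458 with a median of 227 in F1, against 311 to 854 in CTS and 239 to 325 in BTS. The oligodendrocyte list (6 of 8 genes) had a median of 2438 in heated F1, against 6882 in CTS and 4303 in BTS, with ranges that overlapped. The erythrocyte list (4 of 10 genes) had medians of 113.7 in heated F1, 198 in CTS and 147.2 in BTS, the connective tissue list (3 of 6 genes) 228.9, 372.6 and 337.2, and the epidermis list (6 of 8 genes) 196.4, 248.2 and 264.2. In control brains the immune and mast cell median was 251 in F1, 291.3 in CTS and 282.1 in BTS. In the same order of groups the control medians were 6084, 9391 and 9393 for oligodendrocyte and 156.9, 225.8 and 192.2 for erythrocyte. For connective tissue they were 234.6, 287.9 and 335.1. Control F1 was thus also the lowest of the 3 groups for these lists. It was not for endothelium, at 327.1, 533.1 and 321.9, or for epidermis, at 247.6, 219.8 and 265. Neuron markers did not separate the heated groups, with medians of 8098 in heated F1, 8384 in CTS and 7851 in BTS. In control brains the neuron medians were 7468 in F1, 8205 in CTS and 11140 in BTS, so control F1 was the lowest there too. The heated F1 median also lay between the parents for the remaining lists with genes in the tables. In the same order the medians were 5511, 3949 and 5709 for astroglia and radial glia, and 120, 100.5 and 233.5 for choroid plexus and meninges. They were 51.06, 49.53 and 51.38 for skeletal muscle and 785.5, 303.4 and 1157 for pituitary. In control brains the F1 median was the lowest for choroid plexus and meninges (148.6, 194.2 and 200.8) and skeletal muscle (36.49, 43.61 and 45.61). It lay between the parents for astroglia and radial glia (4979, 4215 and 5952) and pituitary (929.2, 186.2 and 2359). The pituitary list (2 of 9 genes) ran from 8.96 to 3549 in heated F1, and none of the listed genes in the tables for these lists was at 0 in every library. The part of these cell types in the levels of the 6 genes was not tested.

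**Figure D4:**
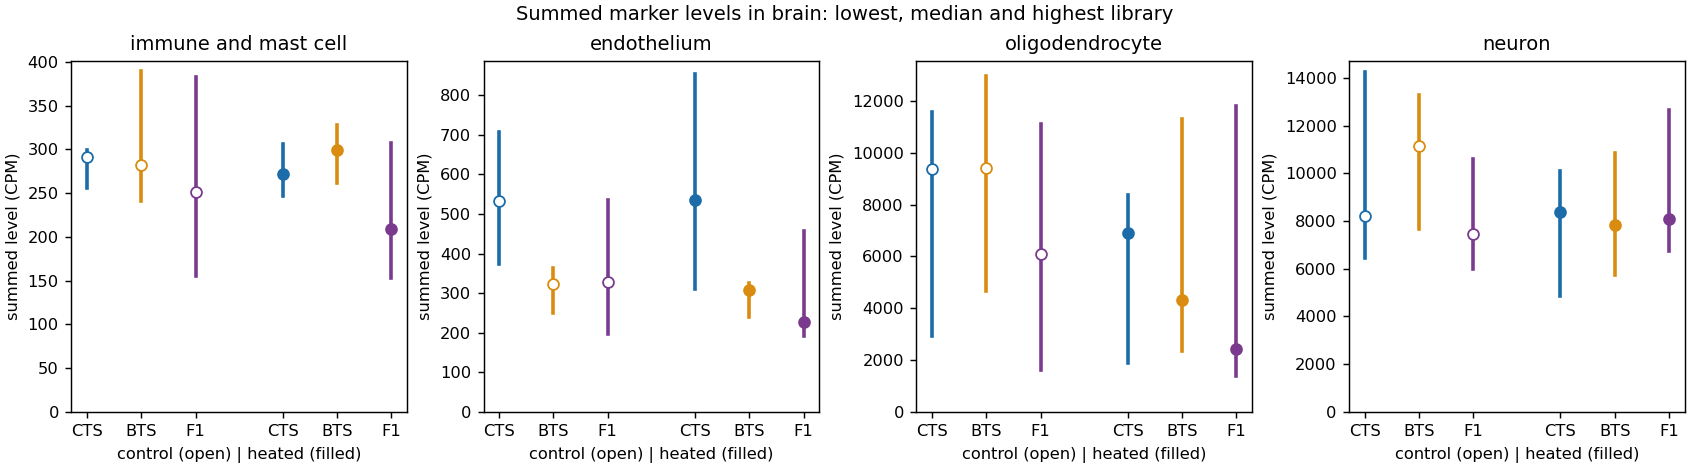
Summed level of 4 marker lists in brain, in CPM, as the lowest, median (point) and highest library of each group, control (open) and heated (filled), without the shallow library. The heated F1 medians for immune and mast cell (209), endothelium (227) and oligodendrocyte (2438) markers are the lowest of the 3 heated groups, and the heated neuron medians are close together. Among the 3 control groups the F1 medians for immune and mast cell, oligodendrocyte and neuron markers are the lowest.

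In leg muscle 4 of the 6 genes had enough reads to test, and GATA2, slit2 and RAB44 were at low levels there. PLEKHD1 was nearly absent from the counts, with at most 2 reads in any CTS, BTS or F1 muscle library, and INHBB had at most 24 reads apart from 63 in control CTS animal 77. KANK1 was the one of the 4 with a call in both treatments, between BTS and CTS.

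KANK1 in muscle was higher in CTS than in BTS, where in control brain it was higher in BTS. Control CTS libraries held 11.6, 11.8, 12.4, 12.7 and 13.1 CPM and control BTS libraries 4.50, 6.54, 7.15, 7.28 and 8.37, with no overlap. The log2 difference of BTS from CTS was -0.82 (SE 0.27, adjusted p = 0.0206), which made KANK1 the 1 called gene of 4 where 28.8% of all gene models were called. The call was lost when BTS animal 68 was left out, at an adjusted p of 0.0584. RLE scaling moved the median of all gene models by -0.134 here, in the direction of the KANK1 difference. Control F1 libraries ran from 6.17 to 13.8 with a median of 8.45, between the parents. F1 differed from CTS by -0.45 (SE 0.22, adjusted p = 0.176) and from BTS by 0.37 (SE 0.24, adjusted p = 0.350), neither of which passed.

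In heated muscle KANK1 was lower in F1 and in BTS than in CTS. Heated CTS libraries held 10.1, 12.5, 16.0, 17.2 and 23.2 CPM, the 2 highest being animals 7 and 13. Heated BTS libraries ran from 4.17 to 10.1 with a median of 6.87 and heated F1 libraries from 2.47 to 10.7 with a median of 8.07. F1 and BTS libraries covered much the same range, and 10 of 11 F1 libraries lay below the lowest CTS library. The log2 difference of F1 from CTS was -1.19 (SE 0.23, adjusted p = 0.000181), that of BTS from CTS was -1.22 (SE 0.26, adjusted p = 0.000347), and that of F1 from BTS was 0.04 with an interval from -0.38 to 0.46.

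The connective tissue list (3 of 6 genes in the tables) was highest by median in CTS among heated CTS, BTS and F1 muscle. The medians were 873 CPM in CTS, 255.5 in BTS and 312 in F1. It summed to 405 to 2495 CPM in heated CTS muscle with the highest value in animal 7, against 112 to 411 in heated BTS, and 194 to 1050 in heated F1 with the highest value in animal 2. KANK1 itself was highest in animal 13 in heated CTS and in animal 44 in heated F1. Its relation to the list was not tested. Without the muscle libraries of animals 2, 7 and 13, an alternative chosen after seeing the data, KANK1 differed by -0.88 between F1 and CTS (adjusted p = 0.0173) and by -0.91 between BTS and CTS (adjusted p = 0.0170).

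slit2 was barely expressed in muscle, and its call there came from few reads. Heated CTS muscle libraries held 1, 2, 20, 31 and 50 reads, or 0.115, 0.185, 0.945, 3.13 and 5.29 CPM, the 2 highest again animals 13 and 7. Among 11 heated F1 libraries 8 had 0 reads, and the others had 1, 9 and 9. The log2 difference of F1 from CTS was -3.17 (SE 1.03, adjusted p = 0.0193). It was lost without animal 7 (-2.46, adjusted p = 0.0953) and without animals 2, 7 and 13 (-2.37, adjusted p = 0.117). With only the groups compared in the fit slit2 did not pass the filter on low counts and was not tested. Without animals 2, 7 and 13 F1 differed from BTS instead, by -2.57 (adjusted p = 0.0487), where the full fit gave -1.49 (SE 0.92, adjusted p = 0.312). With KANK1, slit2 made 2 of 4 genes called between F1 and CTS in heated muscle, where 26.9% of all gene models were called. The second gene model, SLIT2, was not called there, at -2.10 (SE 1.10, adjusted p = 0.152). Heated CTS muscle held 440 reads of SLIT2 in all, against 104 of slit2. Between F1 and BTS in heated muscle SLIT2 differed by -0.04 (SE 0.93, adjusted p = 0.987). The 2 models correlated at r = 0.846 over 45 muscle libraries.

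**Figure D5:**
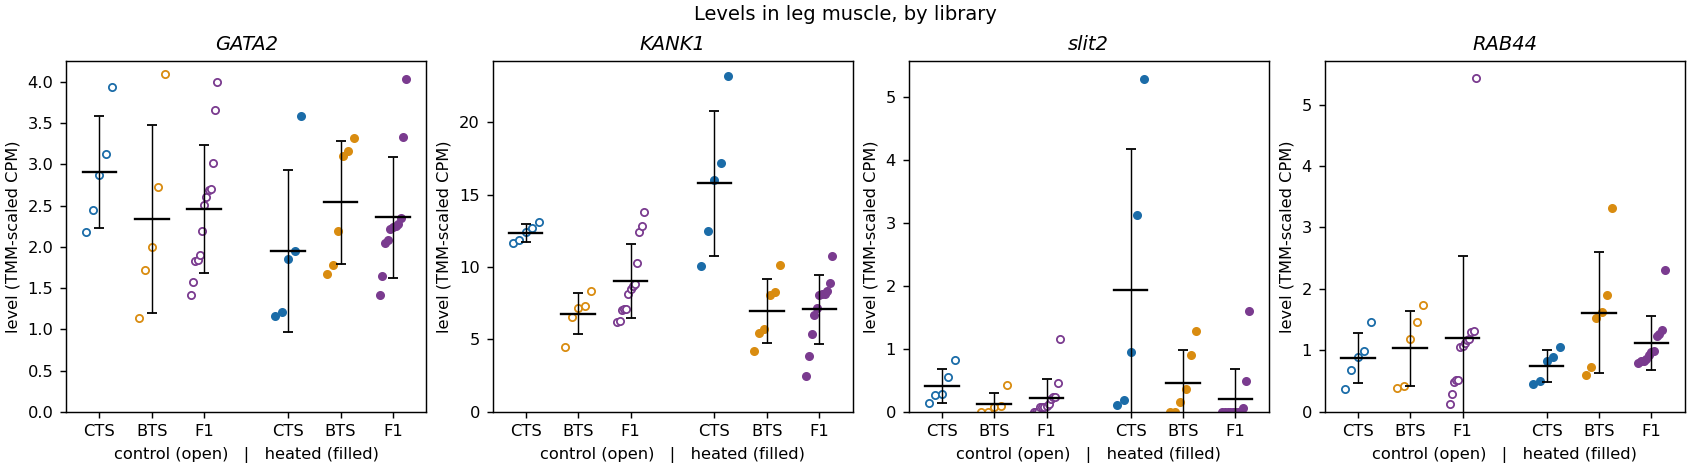
Level of the 4 genes tested in leg muscle by library, in CPM after TMM scaling, for control (open) and heated (filled) CTS, BTS and F1 animals, with the mean as a bar and 1 SD as the error bar and without the shallow library. KANK1 lies higher in CTS than in BTS in both treatments, and the 2 high slit2 points in heated CTS, at 3.13 and 5.29, are animals 13 and 7.

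GATA2 and RAB44 did not pass in muscle in any comparison. GATA2 means lay between 1.95 and 2.91 CPM in the 6 groups, and its F1 differences were -0.24 (SE 0.26) and 0.10 (SE 0.28) in controls and 0.28 (SE 0.28) and -0.10 (SE 0.25) in heated animals, from CTS and BTS in that order. The interval of F1 less CTS in heated muscle ran from -0.27 to 0.83. RAB44 means lay between 0.750 and 1.61, and its nearest result was BTS above CTS in heated muscle by 1.20 (SE 0.56, adjusted p = 0.10). In control muscle no gene of the 4 passed between F1 and CTS, where 11.3% of all gene models did, or between F1 and BTS, where 9.53% did. An unadjusted p under 0.05 was found for 1 of 4 and 0 of 4 in that order. Of all 12554 gene models 3171 and 3067 had one. In heated muscle none passed between F1 and BTS against 11.7% of all gene models. There 0 of 4 had an unadjusted p under 0.05, against 3250 of all gene models. Between BTS and CTS in heated muscle 1 of 4, KANK1, passed against 30.6%. DESeq2 gave the same counts of called genes in these 4 comparisons.

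Lying outside both parents was rare for all gene models in control muscle, 12 of 12554 or 0.0956%, and more common in heated muscle, 138 or 1.1%. None of the 4 genes was outside in either, because none passed between F1 and BTS with edgeR or DESeq2.

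Heat did not bring a call for the 4 genes in muscle. With edgeR the comparisons of heated with control animals called 0.39% of gene models in CTS, 0.0159% in BTS and 0.119% in F1, and 0 of 4 genes in each, with 0 of 4 by DESeq2. An unadjusted p under 0.05 was found for 0 of 4 in each. Of all 12554 gene models 1889, 729 and 1312 had one, in the same order. The log2 differences in F1 were -0.05 (SE 0.21) for GATA2, -0.32 (SE 0.17) for KANK1, -0.55 (SE 0.83) for slit2 and -0.14 (SE 0.37) for RAB44. The heat difference of F1 less the mean of both parents was -0.53 (SE 0.25, adjusted p = 0.408) for KANK1 and -2.51 (SE 1.18, adjusted p = 0.405) for slit2. These were the 2 genes of 4 with an unadjusted p under 0.05, as had 1504 of all 12554 gene models. Neither edgeR, which called 0.00797% of gene models, nor DESeq2 called any of the 4.

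Whether F1 stood differently to its parents in brain than in muscle was tested in control animals in 1 fit over both tissues. With edgeR none of the 4 genes passed where 0.252% of gene models did, and none had a call by DESeq2. None of the 4 had an unadjusted p under 0.05, where 1356 of 16288 gene models did. With the animal as a replicate block, pairing the tissues of 1 animal, the gene models called numbered 8 instead of 41, and none of the 4 genes passed. The differences, brain less muscle, were 0.16 (SE 0.26, adjusted p = 0.971) for GATA2, 0.02 (SE 0.20, adjusted p = 1) for KANK1, 0.12 (SE 0.94, adjusted p = 1) for slit2 and -0.36 (SE 0.44, adjusted p = 0.936) for RAB44.

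The genes around the 6 were followed as lists in control brain. Between F1 and CTS the lists of activin and inhibin genes (13 tested), GATA factors and partners (18), KANK and its partners (23), Slit, Robo and netrin genes (30) and the PLEKH family (29) held 0 calls by edgeR, and the RAB family (48) held 1, where 6.35% of all gene models were called. Their median log2 differences lay between -0.18 and 0.03, against 0.00 for all gene models. The one RAB call was rab34.L, a Rab linked in mouse to primary cilia, at -0.78 (SE 0.17, adjusted p = 0.00306), a call lost without CTS animal 77 (-0.51, adjusted p = 0.0766). Against BTS the calls were RAB13, a Rab of tight junctions, at -0.58 (SE 0.16, adjusted p = 0.0189) and robo3, a Robo receptor of commissural axons, at 0.47 (SE 0.15, adjusted p = 0.0441). The RAB13 call was lost without BTS animals 68 (-0.44), 69 (-0.52) or 71 (-0.56), and the robo3 call without BTS animals 60 (0.51), 68 (0.49), 69 (0.45) or 71 (0.45), with RLE scaling, with no filter and without animals 16 and 64 (adjusted p of 0.051 to 0.0645). Over all gene models 6.3% were called against BTS.

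Of the receptors and partners of the 6 genes compared between F1 and CTS in control brain, 7 are given here. For the slit2 receptors robo1 and ROBO2 the difference from CTS was -0.04 (SE 0.19) and -0.14 (SE 0.24). For the activin receptors ACVR2A and ACVR1B it was -0.03 (SE 0.16) and -0.16 (SE 0.08), and for follistatin, fst, which binds activin, 0.46 (SE 0.33). For the GATA co-factor ZFPM1 it was -0.66 (SE 0.25, adjusted p = 0.107), and for talin, TLN1, -0.09 (SE 0.15). None of these 7 passed, and none of all 21 gene models tested among the listed partners did, where 6.35% of all gene models passed.

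The parents were compared over the same lists. Between BTS and CTS in control brain 3 of 13 activin and inhibin genes, 3 of 18 GATA genes, 2 of 23 KANK genes, 7 of 48 RAB genes, 3 of 30 Slit and Robo genes and 3 of 29 PLEKH genes passed. Those shares run from 8.7% to 23.1%, where 19.1% of all gene models passed. robo3 was lower in BTS by a log2 difference of -0.80 (SE 0.17, adjusted p = 0.000785) and RAB13 higher by 0.95 (SE 0.19, adjusted p = 0.000354). The gene of the GABA-synthesising enzyme GAD2 was lower by -0.92 (SE 0.26, adjusted p = 0.0102).

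In heated muscle the talin gene, TLN1, like KANK1, stood lower in F1 and BTS than in CTS. In heated animals TLN1 was lower in F1 than in CTS by -1.05 (SE 0.20, adjusted p = 0.00012) and lower in BTS than in CTS by -0.89 (SE 0.23, adjusted p = 0.00251), the second call being lost with only those groups in the fit (-0.69, adjusted p = 0.0722). In controls TLN1 was lower in BTS than in CTS by -0.81 (SE 0.24, adjusted p = 0.00912). Of 17 gene models tested among the listed partners, 8 were called lower in BTS than in CTS in control muscle. In heated muscle 4 of 17 were called lower than in CTS in BTS and 4 of 17 in F1. Of all gene models 30.6% and 26.9% were called in those heated comparisons. Of the Robo receptors robo1 was lower in heated F1 than in heated CTS muscle by -1.04 (SE 0.22, adjusted p = 0.000571). Of the Slit, Robo and netrin genes 11 of 21 passed between BTS and CTS in control muscle, 10 of them lower in BTS, where 28.8% of all gene models passed, with a list median of -0.62 against -0.02 for all gene models. The connective tissue values given for KANK1 stand beside these too, and their part was not tested.

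The named gene models most like each of the 6 across 43 brain libraries were found by Pearson's r of log2 CPM, as a description, since heated F1 libraries that chose the genes are among them. For slit2 they included CASKIN2 at r = 0.801, a scaffold protein gene whose larger adjusted p in heated brain, 0.0569, fell just outside the rule. For GATA2 they were BHLHE40 at 0.701 and ZFP36L2 at 0.680, for KANK1 PAX2 at 0.751, for INHBB Skor1 at 0.669 and for RAB44 FHL1 at 0.722. The gene model LOC106733090 was among the 2 most alike for KANK1 at 0.732, for RAB44 at 0.690 and for PLEKHD1 at 0.596. The remaining one for INHBB was LOC108702985 at 0.688 and for PLEKHD1 LOC101340368 at 0.574. For slit2 it was a gene model at 0.848 whose whole name is the word receptor, which does not say what it binds.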

How the data were processed

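Whole brain and leg muscle RNA of CTS, BTS, F1 and backcross salamanders was measured, and the authors deposited 1 table of raw read counts per gene model for each tissue. Trimmomatic, FastQC, STAR and HTSeq are named in the submitters' processing notes, without versions, and the genome build is not given in the sources used here. All 98 table columns matched a labelled sample, while F1 animal 17 enters here through its muscle alone. The kit is stranded per the labels' protocols, and whether counting used strand is not given in the sources used here.

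Counts of the 44 brain and 46 muscle libraries of CTS, BTS and F1 were tested with edgeR 4.0.16 in R 4.3.3, using the quasi-likelihood test, TMM scaling, filterByExpr on the group, and a model of group and sex. P-values were adjusted by Benjamini-Hochberg over all 15496 (brain) or 12554 (muscle) gene models tested with a threshold of 0.05. DESeq2 1.42.0, RLE scaling, other filters and left-out libraries were alternatives. Simulated data with known changes were used to test the scripts.

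The members and gene lists were chosen with earlier results of these data known. Besides the members, the text names their listed partners, up to 3 called genes per list and comparison, and the 2 gene models most alike. The alternatives without animal 2 and without animals 2, 7 and 13 were chosen after seeing the data. No 2 libraries of a group agreed within sampling noise, the lowest chi-square per degree of freedom being 8.33. Nothing says that animals of a group came from separate families, so p-values measure the spread between these animals. Brain and muscle libraries with the same number were taken to come from the same animal. The deviations of such pairs correlated at a mean r of 0.167 over 40 animals, against -0.00406 between different animals. The lowest r of a pair was -0.121, and 26 of 40 pairs lay over 0.1. Animal 64, with different treatment labels in the 2 tissues, was left out of this check.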

Additional observations from a re-analysis of the deposited data

Results flagged for a closer look

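Within groups of 4 to 10 libraries, 5 of 50 combinations of gene and group had 1 library set far apart from the others by Dixon's test, where chance flags about 1 in 20, or 2.5 of 50. Of the 5, 3 were the heated CTS brain library of animal 7, which also carried the muscle markers and stood apart in other marker lists. It held 7.46 CPM of INHBB, where the next lowest library held 12.8, and 6.32 of PLEKHD1, where the next lowest held 10.7. It held 17.7 of RAB44, where the next highest held 6.71. In control CTS muscle, animal 77 held 4.31 CPM of INHBB, where the next highest held 0.546. In control BTS muscle, animal 60 held 0.421 of slit2, from 4 reads, where the next highest held 0.0910.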

How the results depend on the processing

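The heated-brain differences of F1 from either parent kept their sign for all 6 genes under every alternative run, and the one that moved by more than 1 SE was RAB44 against CTS without animal 7. These contrasts chose the genes, and the choice favours a kept sign, so this is a description and no test. Of 615 values of the genes in the tested comparisons under alternatives other than leaving out parent libraries in turn, 582 kept their direction and side of the threshold, 11 lost a call, 5 gained one and 17 changed sign, mostly values close to 0. The cause of these changes was not tested. Alternatives without animal 2 and without animals 2, 7 and 13 were chosen after seeing the data.

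The number of the 6 genes called in control brain between F1 and CTS went from 0 to 1 with only the groups compared, without animal 7 and without animal 2. Between F1 and BTS it went from 1 to 0 with DESeq2, with RLE scaling, and with either no filter or a strict one, and between BTS and CTS from 2 to 1 with DESeq2, RLE scaling, no filter and only the groups compared. In control muscle, with no filter and without animals 2, 7 and 13, it went from 0 to 1 between F1 and CTS and from 1 to 2 between BTS and CTS, the added gene being INHBB, at -2.20 and -3.84 with no filter. INHBB did not pass the filter of the main fit in muscle. Of its 76 reads in control CTS muscle 63 were in animal 77, and control BTS muscle held 3 reads in all. In heated muscle it went from 2 to 1 between F1 and CTS with only the groups compared, where slit2 was filtered out, without animal 7 and without animals 2, 7 and 13, and from 0 to 1 between F1 and BTS in the last of these. Only CTS and BTS libraries, and no F1 library, were left out in turn. Leaving out 1 parent library at a time gave 0 to 1 for F1 against CTS and against BTS in control brain, 1 to 2 for BTS against CTS there, 0 to 1 for BTS against CTS in control muscle and 1 to 2 for F1 against CTS in heated muscle.

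These log2 differences changed sign. In control brain GATA2 between F1 and CTS became 0.0109 without animals 16 and 64, and between BTS and CTS it became -0.0121 with DESeq2, -0.00957 with RLE scaling and -0.000915 without sex in the model. There slit2 became -0.098, -0.0978 and, with only the groups compared, -0.0482. Between BTS and CTS in control muscle RAB44 became -0.0054 with DESeq2, -0.00811 with RLE scaling and -0.553 with only the groups compared. Without animals 2, 7 and 13 slit2 became 0.20 between BTS and CTS in heated muscle and -0.00934 for heat in CTS, and KANK1 for heat in BTS became -0.011, or -0.0081 without animal 76. For brain less muscle KANK1 became -0.0422 with no filter, -0.038 with only the groups compared and -0.00391 without animals 11, 16 and 64. With 1 parent library left out at a time, F1 less CTS in control brain ran from -0.0824 to 0.106 for GATA2 and from -0.305 to 0.0229 for PLEKHD1, and BTS less CTS for slit2 from -0.0695 to 0.111. In muscle F1 less BTS in controls ran from -0.13 to 0.38 for GATA2 and from -1.64 to 0.38 for enah, BTS less CTS for RAB44 from -0.15 to 0.36, F1 less BTS in heated animals for KANK1 from -0.0706 to 0.218, and heat in BTS from -0.0949 to 0.422 for GATA2 and from -0.22 to 0.11 for KANK1. Brain less muscle ran from -0.0207 to 0.275 for GATA2, from -0.0245 to 0.0703 for KANK1 and from -0.47 to 0.29 for slit2.

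With the animal as a replicate block, the brain less muscle differences were 0.13 for GATA2, 0.01 for KANK1, 0.21 for slit2 and -0.10 for RAB44, and the block changed no call of these genes. With RLE scaling the share of called gene models that were higher in the first-named group went from 54.2% to 70.8% for F1 against BTS in control brain, from 53% to 41.3% for BTS against CTS there, and from 46.2% to 36% for BTS against CTS in control muscle. The count of all gene models called went, in the muscle heat comparisons, from 49 in CTS to between 0 and 295, from 2 in BTS to between 0 and 16 and from 15 in F1 to between 3 and 65, and in brain less muscle from 41 to 216 with DESeq2. In the brain heat comparisons it went from 0 to at most 6 in CTS, from 0 to at most 11 in BTS and from 8 to between 0 and 19 in F1. In heated brain it went from 1211 to 573 for F1 against CTS and from 793 to 411 for F1 against BTS with only the groups compared, and to 806 against CTS without animal 76, and in control brain from 2956 to 1928 for BTS against CTS with the same setting and from 977 to between 620 and 641 for F1 against BTS without BTS animal 60, 68 or 71. In muscle it went from 1197 to 661 and 624 for F1 against BTS in controls without BTS animal 60 or 71, and in heated animals from 3374 to 2183 for F1 against CTS without animals 2, 7 and 13, and from 1466 to 929 for F1 against BTS and from 3838 to 2407 for BTS against CTS with only the groups compared. Few reads limit INHBB, PLEKHD1 and slit2 in muscle.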
